A study of Mus musculus with 68 samples.

Results

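Striated muscle genes were followed here through 68 papillomas, benign tumors of the epidermis. The set held 37 genes of the sarcomere, of calcium handling and of muscle energy supply. Its genes were found by symbol in the array annotation, which named 18193 genes by probesets of 1 symbol, and each gene was represented by its probeset of highest mean over the 68 arrays. All 37 genes were on the array, and 30 of them lay above the median of their own array in at least 11 arrays and were tested. The other 7, Tnnt1, Cacna1s, Casq1, Ldb3, Cav3, Sln and Smpx, are given by their values.

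The papillomas came from 37 FVBBX mice, in which offspring of SPRET/Ei and FVB/N parents were crossed back to FVB/N, and each was hybridized to its own array. All mice were 8 to 12 weeks old at the start and received DMBA once on shaved back skin and then TPA 2 times a week for 20 weeks, so that no group was untreated and normal skin was not analysed here. Arrays of 2 papillomas were available from 31 mice and of 1 papilloma from 6 mice, whatever the number of tumors a mouse bore at 20 weeks. Mice with more than 7 papillomas at 20 weeks were susceptible (12 mice, 22 arrays, 9 to 35 papillomas), those with fewer than 2 were resistant (6 mice, 11 arrays), and the other 19 mice (35 arrays, 2 to 7 papillomas) were intermediate. By their labels 21 mice were female and 16 male, and 17 had an agouti and 20 a white coat. The labeled days alive also differed widely between mice, were missing for some, and entered no comparison. Every backcross mouse has its own mixture of SPRET/Ei and FVB/N alleles, so mice within a group were not genetically alike. Xist or Y-linked transcripts went against the sex label on 8 arrays of 6 mice (mice 12, 13, 15, 21, 24 and 35), and results are given with and without these mice. The arrays had similar scales, with medians of 5.18 to 5.28, 75th percentiles of 7.31 to 7.53 and 90th percentiles of 9.05 to 9.22 on the log2 scale. Bulk tumor RNA does not separate fewer muscle fibers from less RNA per fiber.

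Striated muscle contracts when calcium released from the sarcoplasmic reticulum binds troponin on the thin actin filament and frees it for the thick myosin filament. Mouse back skin lies on a thin sheet of skeletal muscle, the panniculus carnosus, beneath the dermis and the fat layer. Skeletal fibers are classed by their myosin heavy chain: the slow type by Myh7, and the fast types IIa, IIx and IIb by Myh2, Myh1 and Myh4.

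To show what sequence lies next to the genes on which the results turn, promoters are given for Acta1, which ordered the tumors, Ckm, the reference for other tissues, and the 3 fast myosins, whose genes follow each other on chromosome 11 in the order Myh2, Myh1, Myh4. The sequences are the 250 bases before the start of each gene on its own strand, 5′ to 3′, from RefSeq on GRCm38.p6. Capitals mark matches, on either strand, to CANNTG (the E box of the MyoD family), its case CAGCTG, the MCAT element CATTCC, the CArG box of serum response factor and the MEF2 site.

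Acta1, chr8:123894776-123895025, minus strand: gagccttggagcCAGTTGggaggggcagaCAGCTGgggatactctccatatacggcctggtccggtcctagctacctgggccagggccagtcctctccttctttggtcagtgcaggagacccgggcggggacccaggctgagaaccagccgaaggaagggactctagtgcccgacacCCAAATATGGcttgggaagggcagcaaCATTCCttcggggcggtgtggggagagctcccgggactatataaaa
Ckm, chr7:19410844-19411093, plus strand: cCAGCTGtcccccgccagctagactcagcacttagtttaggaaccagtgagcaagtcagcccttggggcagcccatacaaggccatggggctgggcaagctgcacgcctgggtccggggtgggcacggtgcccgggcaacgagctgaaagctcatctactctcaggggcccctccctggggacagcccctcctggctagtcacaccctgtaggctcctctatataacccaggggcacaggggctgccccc
Myh2, chr11:67170777-67171026, plus strand: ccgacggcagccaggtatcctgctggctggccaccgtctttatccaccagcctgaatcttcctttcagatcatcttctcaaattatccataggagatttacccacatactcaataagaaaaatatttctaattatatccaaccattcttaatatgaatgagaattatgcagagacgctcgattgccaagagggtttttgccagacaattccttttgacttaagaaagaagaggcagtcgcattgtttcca
Myh1, chr11:67199852-67200101, plus strand: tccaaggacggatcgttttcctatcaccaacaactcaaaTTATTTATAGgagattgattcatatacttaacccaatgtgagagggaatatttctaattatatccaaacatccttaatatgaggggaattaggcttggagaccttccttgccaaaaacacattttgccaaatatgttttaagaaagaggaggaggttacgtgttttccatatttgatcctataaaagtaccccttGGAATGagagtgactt
Myh4, chr11:67237562-67237811, plus strand: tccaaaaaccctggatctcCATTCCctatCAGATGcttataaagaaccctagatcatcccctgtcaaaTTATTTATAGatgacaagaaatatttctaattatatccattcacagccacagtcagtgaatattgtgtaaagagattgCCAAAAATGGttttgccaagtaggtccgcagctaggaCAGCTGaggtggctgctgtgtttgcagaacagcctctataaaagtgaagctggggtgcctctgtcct

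In these stretches the Acta1 promoter held 2 matches to CANNTG, 1 of them CAGCTG, with 1 CATTCC and 1 CArG box. The Ckm stretch held 1 match, a CAGCTG. Myh4 held 2 matches to CANNTG, 1 of them CAGCTG, and 1 match each to CATTCC, CArG and MEF2, Myh1 held 1 CATTCC and 1 MEF2 match, and Myh2 held none of the motifs. RefSeq windows of 300 bases (250 before and 50 after the start) were found for 28 of the 37 genes, with 33 windows in all. CAGCTG occurred in 57.6% of these windows and in 16.3% of all 32851 promoter windows. The wider motif CANNTG occurred in 78.8% against 72.3%, CATTCC in 30.3% against 14.7%, CArG in 12.1% against 1.63% and MEF2 in 15.2% against 3.19%. A match is a run of letters and not evidence of a bound factor, and no test was made.

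The contractile filaments gave the widest spread among tumors. Acta1, the actin of skeletal muscle thin filaments, ranged from 5.52 to 12.55 with a median of 7.44 on the log2 scale over the 68 arrays, and exceeded the 75th percentile of its array in 34 arrays and the 90th in 23. Myh1, the myosin heavy chain of type IIx fibers, ranged from 2.83 to 11.84 with a median of 4.95. Tnnc2, the calcium sensor of fast troponin, ranged from 4.09 to 11.09 with a median of 5.75. These 3 genes had the largest ranges over mouse means, at 7.02, 7.93 and 6.77 on the log2 scale. The fast light chains behaved alike: Myl1 ran from 3.50 to 10.17 (median 4.58) and Mylpf from 5.65 to 10.19 (median 6.77). Of the fast troponins, Tnnt3 ran from 3.52 to 9.80 (median 4.73) and Tnni2 from 5.47 to 10.91 (median 6.58). In all of these genes the median array lay far nearer to the lowest array than to the highest, so that high values belonged to a minority of the tumors.

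The thin-filament genes of slow fibers did not share this spread. Tnnt1, the slow troponin T, stayed between 3.17 and 3.96 and exceeded its array median in no array. Tnni1, the slow troponin I, ran from 5.16 to 7.85 with a median of 5.66, and its single high value came from papilloma 2 of mouse 22. Tpm2, a tropomyosin that smooth muscle and other cells also make, lay between 11.71 and 12.79 in every array. Tnnt1 and Tpm2, with Cav3, a caveolin of the muscle membrane (3.89 to 5.14), had the smallest ranges over mouse means (0.66, 0.77 and 1.09). The myosin-binding proteins Mybpc1, of slow and fast fibers, and Mybpc2, of fast fibers, reached 7.81 and 7.64 from medians of 5.10 and 4.38.

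Genes of the Z disc and of the elastic and intermediate filaments differed in how many arrays they exceeded the array median. Ttn, the giant spring of the sarcomere, ran from 3.87 to 8.39 with a median of 4.48 and exceeded its array median in 15 arrays. Neb, the ruler of the thin filament, ran from 2.85 to 7.50 (median 3.45) and exceeded it in 12 arrays. Actn2 and Actn3, the α-actinins that crosslink actin at the Z disc, reached 7.57 and 7.45 from medians of 4.43 and 5.04. Myot, which binds α-actinin, ran from 2.88 to 8.11 (median 3.71), Tcap, the titin cap, from 4.37 to 7.51 (median 5.13), and Myoz1, a calcineurin-binding protein of the Z disc, from 5.73 to 8.38 (median 6.15). Des, the intermediate filament of muscle cells, lay above its array median in all 68 arrays, between 6.23 and 8.19. Of the members outside the test, Ldb3 reached 6.10 and Smpx 7.11, and they exceeded their array medians in 7 and 10 arrays.

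Genes of energy supply moved with the filaments. Ckm, the muscle creatine kinase that buffers ATP, ran from 5.16 to 10.05 with a median of 5.80. Mb, the oxygen store myoglobin, ran from 4.68 to 9.35 with a median of 5.56. Among the enzymes of glycolysis and glycogen breakdown, Eno3 reached 9.17 (median 6.06), Pgam2 7.21 (median 5.00) and Pygm 7.85 (median 4.62). In each of these the highest arrays were those in which Acta1 was high, with Pearson r across the 68 arrays of 0.93 for Ckm, 0.93 for Mb, 0.92 for Eno3, 0.85 for Pgam2 and 0.80 for Pygm.

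Calcium handling was read most clearly in 2 genes of fast fibers. Atp2a1, the calcium pump that refills the sarcoplasmic reticulum, ran from 4.83 to 9.56 with a median of 5.70 and exceeded the 75th percentile in 15 arrays. Pvalb, the cytosolic calcium buffer parvalbumin, ran from 4.61 to 9.82 with a median of 5.40 and exceeded it in 11 arrays. The release channel Ryr1 reached 6.47 from a median of 4.50, Trdn, which anchors the release complex, 7.63 from 4.92, and Casq1, the calcium store, 6.68 from 4.18. The voltage sensor Cacna1s never exceeded its array median (3.51 to 5.07), and Sln, the small inhibitor of the pump, did so in 3 arrays and reached 5.85.

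**Figure D1:**
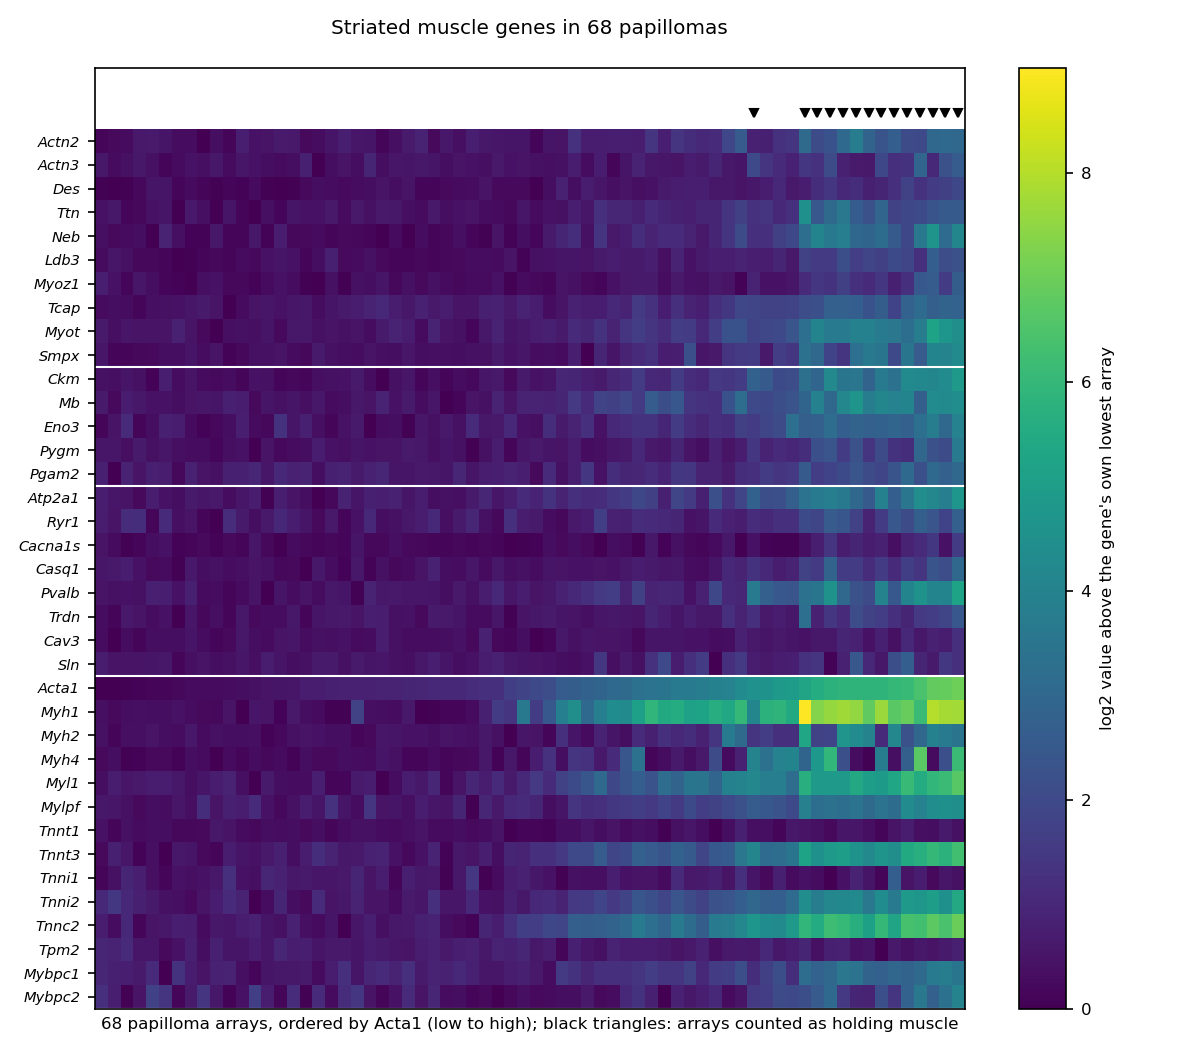
Heat map of the 37 striated muscle genes (rows, by role from top to bottom: Z disc, titin and cytoskeleton; energy and oxygen; calcium handling; filaments) in 68 papilloma arrays (columns, ordered by Acta1). Color gives the log2 value above that gene's own lowest array, and triangles mark the 14 arrays counted as holding muscle, which gather at the right where most genes are high together while Tnnt1, Tnni1 and Tpm2 show no such gradient.

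Across the 68 arrays 24 of the other 36 genes had a Pearson r above 0.8 with Acta1, and the median r was 0.86. Tnnc2, Myl1 and Tnnt3 followed it most closely (0.98, 0.97 and 0.97). The r was below 0.5 for Tpm2 (-0.14), Tnni1 (0.04) and Tnnt1 (0.31). These correlations describe arrays, of which 62 come in pairs from 1 mouse, and carry no test. A second probeset, present for some members, did not always move: second probesets of Ckm, Des and Myoz1 exceeded their array median in no array and had r of 0.05, -0.17 and 0.14 with the one used. The second Mb probeset exceeded its array median in 67 arrays and had r = -0.22. Other probesets did follow, with r = 1.00 for Myh1, 0.96 for Ttn and Tnni2 and 0.78 for Myh4. Myh1, Ttn and Tnni2 also had probesets that followed less or not at all, with r as low as -0.14, -0.15 and 0.40.

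Outside the set, the genes most like the mean of the 30 tested members over the 37 mice were Apobec2 (r = 0.97), a deaminase family member made in muscle, Cmya5 (0.96), a protein of the muscle cytoskeleton, and Pde4dip (0.96), an anchor of phosphodiesterase. Next came Myom1 (0.93) and Myom2 (0.91), which crosslink myosin in the M band, Pdlim3 (0.93) and Synpo2 (0.91), proteins of the Z disc and actin bundles, and Tmod4 (0.91), which caps thin filaments. Cox8b (0.91), Cox6a2 (0.91), Ppp1r3c (0.91) and Myhas (0.91) completed the 12. Cox8b and Cox6a2 are subunits of cytochrome oxidase and Ppp1r3c directs a phosphatase to glycogen. Without the 6 mice of doubtful sex label these 12 correlations were 0.87 to 0.96. Likeness was ranked over all tested genes and carries no test.

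To count tumors with clear muscle signal, an array was called as holding muscle when at least 6 of 8 core markers (Acta1, Ckm, Mylpf, Tnnc2, Tnnt3, Myh4, Atp2a1 and Pvalb) exceeded its own 75th percentile. This held in 14 of 68 arrays, or 20.6%, each from a different mouse. The marker counts left a gap: 34 arrays had none of the 8 markers above that level, 20 had 1 to 4, none had 5, and 14 had 6 to 8. The count was 16 with 4 markers required, but 33 with the array median, 2 with the 90th percentile and 4 with all 8 markers. Leaving out the mice of doubtful sex label left 13. In the 14 arrays Acta1 ran from 10.08 in papilloma 2 of mouse 28 to 12.55 in mouse 35. Papilloma 2 of mouse 14 and papilloma 1 of mouse 8 had higher Acta1 (10.48 and 10.39) than papilloma 2 of mouse 28 without being counted, as did papilloma 2 of mouse 9 (10.14).

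The arrays holding muscle were 6 of 22 from susceptible mice (27.3%), 2 of 11 from resistant mice (18.2%) and 6 of 35 from intermediate mice (17.1%). They were 11 of 39 arrays from females and 3 of 29 from males by label, and 6 of 30 from agouti and 8 of 38 from white mice. Every one of the 7 start cohorts, the groups of mice that began treatment together, had at least 1. Among mice with days alive recorded, mice 20, 27, 28, 29, 30 and 31 had the fewest, and each had an array holding muscle. Other arrays holding muscle came from mice with more days alive, such as mice 35 and 36. These are counts with no test, and 1 of the 14 came from a mouse of doubtful sex label.

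The pairs were used to ask whether muscle signal belonged to a mouse or to a single tumor. No mouse had muscle by this count in both papillomas, 10 of 31 mice had it in 1 of them, and 21 had it in neither. Of the 6 mice with a single array 4 had it. The absence of mice with muscle in both papillomas depended on the cutoff. With 4 markers required, mouse 9 had it in both (8 and 4 markers). By the array median several mice did, among them mice 5, 8 and 30. Acta1 was 11.40 in papilloma 1 and 5.84 in papilloma 2 of mouse 20, a difference of 5.56 within 1 animal where the whole series spanned 7.03. It was 6.38 and 11.51 in mouse 22, 10.77 and 6.21 in mouse 37, and 5.80 and 10.48 in mouse 14. In these 4 pairs the difference exceeded 4 on the log2 scale. At the other end, 11 pairs differed by less than 1, most of them with both papillomas low, such as mouse 2 with 5.52 and 5.54. Pairs with both papillomas fairly high also occurred, as in mouse 9 (11.31 and 10.14), mouse 5 (11.39 and 9.87) and mouse 8 (10.39 and 9.48). The median difference in Acta1 within a mouse was 1.25 and ranged from 0.02 to 5.56.

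**Figure D2:**
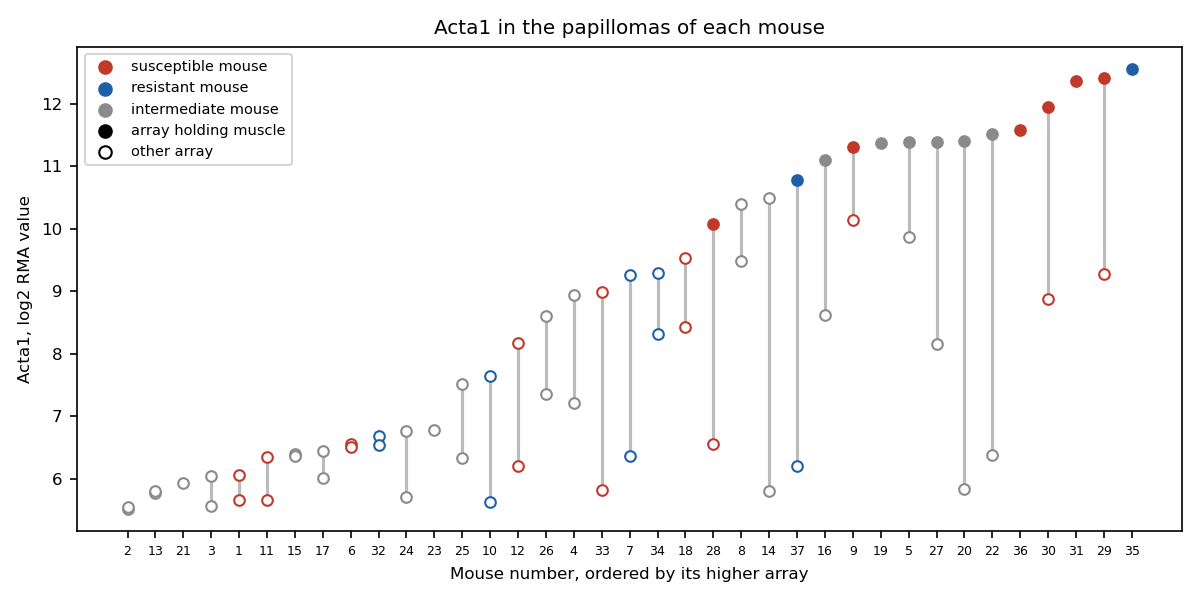
Acta1 log2 value (vertical axis) in each papilloma of the 37 mice (horizontal axis, ordered by the higher value), with a line joining papillomas of 1 mouse, color for susceptibility group and filled symbols for the 14 arrays holding muscle. In the 10 pairs with a filled symbol the other papilloma is lower, by as much as 5.56 in mouse 20. Acta1 is among the markers that chose the filled arrays, so this is partly a result of the choice.

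Agreement between the papillomas of a mouse was measured by the intraclass correlation over the 31 pairs, the share of variance lying between mice, with an F test adjusted over all tested probesets by the Benjamini-Hochberg method. Of the 30 tested muscle genes 2 passed (6.67%), where 71.0% of all 21581 tested probesets did. With values centered within start cohorts the background fell from 15312 to 10800 probesets. The members moved together across arrays, so their results are not independent of each other. The median intraclass correlation was 0.195 over the muscle genes and 0.435 over all tested probesets, and 12.8% of all tested probesets lay below the median of the muscle genes. The muscle genes ran from -0.055 (Ryr1) to 0.442 (Tpm2), and 15 lay below 0.2. Their median difference within pairs, at 0.53 on the log2 scale, was larger than the 0.19 over all tested probesets. That difference is not scaled to the spread of each gene, so it does not measure agreement. The filter removed 7 members that exceeded their array median in at most 10 arrays, so these figures describe 30 of 37 genes, and with no filter 2 of the 37 passed. Without the mice of doubtful sex label 2 members passed while 58.2% of all tested probesets did, and the median of the members was 0.143. The count was sensitive to single mice with strongly unlike papillomas, rising to 7 without mouse 22, to 5 without mouse 20 or mouse 37 and to 4 without mouse 14, 28 or 33.

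The 2 genes that passed were Tpm2 (0.442, adjusted p = 0.0108) and Myh4 (0.440, adjusted p = 0.0110). Tpm2, like Tnni1 and Tnnt1, did not follow the other members. The average over all Tpm2 probesets had an intraclass correlation of 0.09 (adjusted p = 0.33). Myh4, the myosin of type IIb fibers, was at 5.08 or more in both papillomas of mouse 8 (7.01 and 5.08), mouse 9 (8.98 and 6.40), mouse 16 (5.42 and 7.82) and mouse 30 (9.70 and 6.38). In mouse 5 it was low in both (3.30 and 3.84), where Acta1 was high in both. The Myh4 result held with values centered within start cohorts (0.415, adjusted p = 0.0226). It did not pass over the mean of all Myh4 probesets. Acta1 had an intraclass correlation of 0.289 (adjusted p = 0.0691), which passed on leaving out mouse 14, 20, 22 or 37 (adjusted p 0.0332 to 0.0450). Ckm had 0.122 (adjusted p = 0.27).

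**Figure D3:**
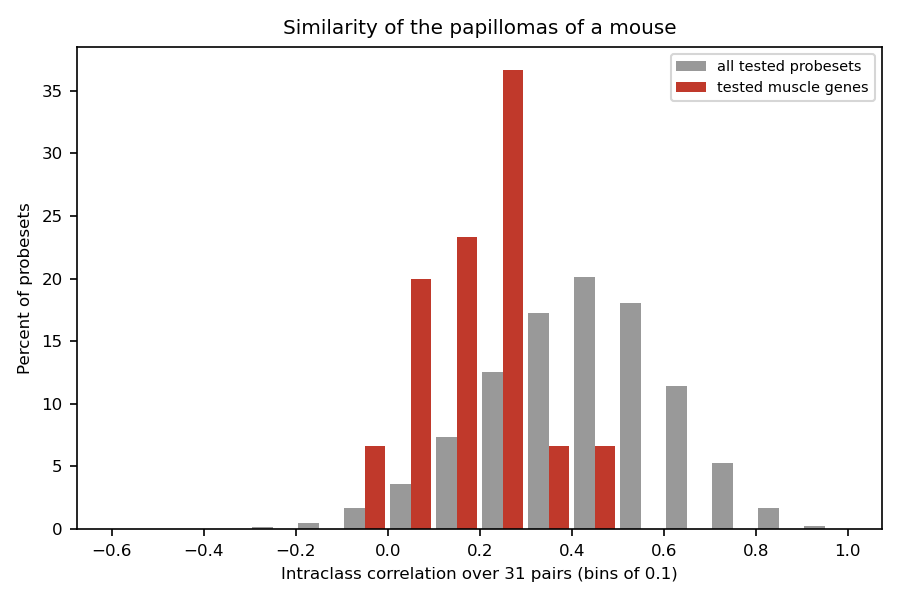
Distribution of the intraclass correlation over 31 pairs of papillomas (horizontal axis, bins of 0.1) as percent of probesets (vertical axis) for all 21581 tested probesets (grey) and the 30 tested muscle genes (red). The muscle genes lie to the left, with medians of 0.195 against 0.435.

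Fiber type was read from the change of each gene over arrays, since probesets of different genes are not on 1 scale. The arrays holding muscle were chosen by core markers of which 6 (Mylpf, Tnnc2, Tnnt3, Myh4, Atp2a1 and Pvalb) are genes of fast fibers, so high fast genes in them are part of the choice. Myh1, which was not used in it, exceeded its array median in all 14 arrays holding muscle, its 75th percentile in 13 and its 90th in 12, with papilloma 2 of mouse 28 lowest at 6.96. Over all 68 arrays Myh1 exceeded the array median in 34. The other fast myosins were split: among the 14 arrays 6 had Myh2 and not Myh4 above the array median, 4 had Myh4 and not Myh2, 4 had both, and none had neither.

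Myh2 ran from 3.08 to 8.38 (median 3.60) and Myh4 from 3.00 to 9.70 (median 3.33) over the 68 arrays. At one end, papilloma 1 of mouse 5 had Myh2 at 7.41 and Myh4 at 3.30, papilloma 1 of mouse 27 had 7.12 and 3.04, papilloma 2 of mouse 22 had 7.24 and 3.38, and mouse 31 had 7.04 and 3.26. These 4 arrays held Myh2 and lacked Myh4 although Acta1 was at 11.39 or more in each. At the other end, papilloma 1 of mouse 9 had Myh2 at 4.89 and Myh4 at 8.98, papilloma 1 of mouse 20 had 4.16 and 6.78, and papilloma 2 of mouse 28 had 4.48 and 7.05. Both were high in mouse 35 (6.55 and 9.16) and in papilloma 1 of mouse 30 (6.13 and 9.70). The difference of Myh4 minus Myh2, which compares arrays and not genes, ran from -4.11 in mouse 5 to 4.09 in mouse 9.

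Some genes of fast fibers followed Myh4 and others did not. Across the 14 arrays the Pearson r with Myh4 was 0.82 for Actn3, 0.79 for Pvalb and 0.70 for Mybpc2 (Spearman 0.80, 0.69 and 0.65), while Myh2 followed Actn2 (r = 0.77, Spearman 0.79) and Mybpc1 (0.61 and 0.62). With Myh4 the r was 0.63 for Atp2a1 and 0.59 for Pygm, but 0.21 for Tnni2, 0.11 for Eno3 and -0.03 for Myl1. Myh2 and Myh4 themselves had r = -0.54 (Spearman -0.57), and -0.61 without the mouse of doubtful sex label. Over all 68 arrays the sign was the opposite, with r = 0.38 (Spearman 0.47). In arrays with Myh4 at 3.30 or 3.04 (mice 5 and 27) Actn3 was 5.15 and 5.11 and Pvalb 6.86 and 6.66. In the array of mouse 30 with Myh4 at 9.70, Actn3 was 7.45 and Pvalb 9.24. The arrays were chosen partly by Myh4 and Pvalb and share their total muscle signal, so these correlations are descriptions with no test.

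**Figure D4:**
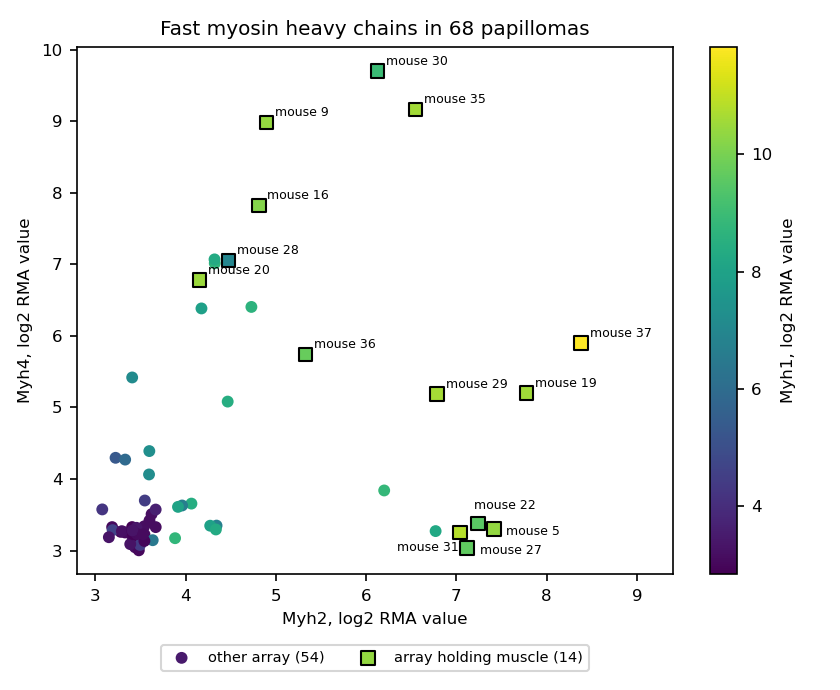
Myh4 (vertical axis) against Myh2 (horizontal axis), both as log2 values, in 68 papillomas, colored by Myh1, with squares for the 14 arrays holding muscle. Arrays of mice 5, 22, 27 and 31 lie at the lower right with Myh2 above 7 and Myh4 at most 3.38, those of mice 9, 16, 20 and 28 at the upper left.

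Genes of slow fibers differed among themselves. Myh7, the slow myosin heavy chain (4.37 to 5.15), Myl2, its light chain (3.05 to 4.39), and Tnnt1 never exceeded their array median, and Tnnc1, the troponin C of slow and cardiac muscle, did so in 1 array (4.51 to 5.36). Myl3, Casq2, Atp2a2 and Tpm3 of the same list exceeded it in all 68 arrays, and their r with Acta1 over mice was -0.44, 0.22, -0.48 and -0.25. The Myl3 probeset was nearly flat (5.53 to 6.26) and exceeded the 75th percentile in no array. Atp2a2 and Tpm3 are also made by many cells other than muscle. Csrp3, a LIM protein of slow and cardiac fibers, ran from 3.74 to 7.53 (median 4.69), and Myoz2 from 3.86 to 6.17 (median 4.49), and both followed Acta1 over the mice (r = 0.88 and 0.86). The mean of the slow members (Tnnt1, Tnni1, Actn2, Mybpc1 and Sln) minus the mean of the fast members ran from -3.57 to -1.18 in the arrays holding muscle and from -2.20 to -0.00 in the others. This quantity follows how much muscle signal an array has, and Actn2, Mybpc1 and Sln of the slow members also followed Acta1 over arrays (r = 0.87, 0.90 and 0.56), so it is given as a description.

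Other muscle genes outside the set gave the same picture in part. Of 77 such genes with a probeset, 38 could be tested and 26 exceeded their array median in no array. Myom2 reached 8.94 (median 3.85), Ppp1r3c 8.13 (median 4.93), Ckmt2, the mitochondrial creatine kinase, 6.73 (median 3.52) and Cox7a1 6.84 (median 3.98). Dmd, which encodes dystrophin, ran from 3.20 to 6.73, and Srl, a protein of the sarcoplasmic reticulum, from 3.93 to 6.63. Of the regulators of muscle formation, 7 of 10 with a probeset never exceeded their array median: Myod1, Myog, Myf5, Myf6, Pax7, Mymk and Vgll2. Mef2c, which endothelial and immune cells also make, ran from 5.00 to 8.63 and had r = 0.77 with Acta1 over mice. The myosins of developing muscle, Myh3 and Myh8, and the fetal receptor subunit Chrng never exceeded their array median. By limma 0 of these 38 genes passed between susceptibility classes, sexes or coat colors, where 0.0510%, 0.0695% and 0.0741% of all tested probesets did. At an unadjusted p under 0.05 there were 3, 8 and 2 of the 38, where 9.52%, 14.9% and 7.87% of all tested probesets lay.

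Susceptible and resistant mice were compared to see whether muscle signal went with tumor number. Acta1 ran from 5.86 to 12.37 (median 8.65) in the 12 susceptible mice and from 6.61 to 12.55 (median 8.15) in the 6 resistant mice, as mouse means. The ranges overlapped almost entirely, with means of 8.85 ± 2.28 (SD, n = 12) and 8.48 ± 2.19 (SD, n = 6) and a difference of 0.37 (SE 1.04, limma adjusted p = 0.96). None of the 30 tested genes passed the threshold of 0.05, where 0.0510% of all tested probesets did. At an unadjusted p under 0.05 limma also counted 0 of 30, where 9.52% of all tested probesets lay. The difference was positive for 22 and negative for 8 genes, with a median of 0.14 against 0.01 over all tested probesets. Tnni1 came closest, with 5.61 ± 0.18 in susceptible and 5.84 ± 0.27 in resistant mice and a difference of -0.22 (SE 0.11, limma adjusted p = 0.53). The direction over the list was not stable. The median was 0.77 without the mice of doubtful sex label, of which mouse 35 is a resistant mouse with 1 array and the highest Acta1 of its group. It was 0.65 with start cohort as a block, and it ran from -0.05 without mouse 32 to 0.70 without mouse 35. Within start cohorts the Acta1 difference could be formed in 3 and was positive in 2 of them, from -1.40 to 1.85.

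Muscle values by sex did not pass the threshold, with higher means in females for most members. Acta1 ran from 6.00 to 12.55 (median 8.95) in 21 females and from 5.53 to 11.37 (median 6.98) in 16 males, with means of 8.94 ± 2.03 and 7.40 ± 1.76 (SD). The ranges overlapped, and the difference of 1.54 (SE 0.61) had a limma adjusted p of 0.27. None of the 30 genes passed, where 0.0695% of all tested probesets did. At an unadjusted p under 0.05 there were 16 of 30, where 14.9% of all tested probesets lay. The difference was positive for 29 genes, with a median of 0.63 against -0.01 over all tested probesets. Members moved together across arrays, so these 29 directions are not independent of each other. Some marker lists of other cell types had positive medians by sex too, led by 0.82 for the 7 tested adipocyte, 0.52 for the 6 macrophage and 0.50 for the 5 mast cell genes. Others were negative: hair follicle (-0.50), suprabasal epidermis (-0.41), cardiac (-0.23), basal epidermis (-0.10), nerve and Schwann (-0.06) and mitosis (-0.01). The part of these lists in the result was not tested.

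The smallest adjusted p belonged to Trdn, with 5.29 ± 0.55 in females and 4.87 ± 0.30 in males and a difference of 0.42 (SE 0.15, limma adjusted p = 0.24). Tpm2 was the exception in sign, at 12.29 ± 0.13 in females and 12.43 ± 0.21 in males (-0.13, adjusted p = 0.29), and its direction turned when all probesets of the gene were averaged (0.01). Sex labels were doubtful for 6 mice, and without them the median over members was 0.40 and the Acta1 difference 1.11 (adjusted p = 0.58). Within the 6 start cohorts holding both sexes the Acta1 difference was positive in 5 and ran from -2.64 to 6.77.

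Coat color, where agouti marks a SPRET/Ei allele at the Tyr locus, gave no separation. Acta1 ran from 5.92 to 12.55 (median 8.14) in 17 agouti mice and from 5.53 to 12.37 (median 8.03) in 20 white mice, and the ranges overlapped. With sex as covariate none of the 30 genes passed, where 0.0741% of all tested probesets did, and limma counted 0 at an unadjusted p under 0.05, where 7.87% lay. The largest difference was that of Myh4, with 4.55 ± 1.62 in agouti and 3.97 ± 1.45 in white mice (0.63, SE 0.48, adjusted p = 0.76). The median over members was 0.14 and turned to -0.01 without the mice of doubtful sex label, and to -0.03 without mouse 35 alone. The Acta1 difference was positive in 4 of 7 start cohorts.

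The last comparison asked which other tissue genes moved with muscle over the 37 mice. The planned reference was the member of highest mean, which was Tpm2. With it no list of 14 passed after Benjamini-Hochberg adjustment over 100000 permutations. The strongest was macrophage markers (r = -0.458, adjusted p = 0.0591). Fibroblast (-0.396), mast cell (-0.375), T cell (-0.339) and tendon markers (-0.336) were negative too, opposite in sign to their r with Ckm below. As Tpm2 did not follow the other members, Ckm, which did, was used as the alternative reference and is described next.

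With Ckm, 8 of the 14 lists passed. Adipocyte markers had r = 0.742 (Spearman 0.616), smooth muscle and pericyte markers 0.637 (0.618), and both had an adjusted p of 7e-05, from the smallest p that the permutations can give. Fibroblast markers had r = 0.605 (Spearman 0.705, adjusted p = 0.000327). Endothelial markers (0.531), mast cell markers (0.525), T cell markers (0.513), tendon and fascia markers (0.499) and macrophage markers (0.381, adjusted p = 0.0345) also passed by permutation. Most of these are cells of the dermis and of the layers beneath it.

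The lists of the tumor epithelium did not pass, nor did those of mitosis, nerve and Schwann cells and cardiac genes. Basal epidermis had r = -0.310 (adjusted p = 0.0909), suprabasal epidermis -0.041, hair follicle 0.267, mitosis -0.219, nerve and Schwann cells 0.106 and cardiac genes 0.269. Without the mice of doubtful sex label basal epidermis passed by permutation (r = -0.422, adjusted p = 0.0338) and macrophage did not (0.228, adjusted p = 0.25). When only papilloma 1 of a mouse was used, mitosis passed by permutation (r = -0.396, adjusted p = 0.0253) and macrophage did not (0.304, adjusted p = 0.11). After the 2 mice farthest from the median Ckm were left out, adipocyte (0.659), smooth muscle (0.532), fibroblast (0.567), endothelial (0.495), mast cell (0.548) and T cell markers (0.399) still passed, and tendon (0.368, adjusted p = 0.0596) and macrophage markers (0.337, adjusted p = 0.0837) did not.

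Single genes show what lay behind the lists. Adipoq, the adipokine adiponectin, ran from 3.55 to 11.91 (median 6.46) over the arrays and had r = 0.71 with Ckm over mice. Lpl, the lipase of fat and muscle, had 0.75, and Dpt, a matrix protein of dermal fibroblasts, 0.74. Tek, an endothelial receptor, had 0.72, and Synpo2, a member of the smooth muscle list that striated muscle also makes, 0.80. This Synpo2 probeset was not the one given above among the genes most like the members. Without Synpo2 the smooth muscle list had r = 0.590 with Ckm, and without Lpl, which muscle makes too, the adipocyte list had 0.722. Fabp4, a fatty acid carrier of adipocytes, was high throughout (11.25 to 14.50) and had -0.09.

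The link held unevenly within start cohorts of 6 or more mice. Adipocyte markers had r = 0.969 in the 6 mice of cohort 1, 0.892 in the 8 of cohort 2 and 0.025 in the 9 of cohort 6. Fibroblast markers had 0.821, 0.715 and 0.236, smooth muscle markers 0.80, 0.828 and 0.558, and endothelial markers 0.941, -0.128 and 0.654. In cohort 6 the r with fat markers was near 0. Within mice, the difference in Ckm between the papillomas of a pair was set against the difference in each list over 31 pairs, as a description chosen after seeing the data. There r was 0.439 for tendon and fascia, 0.394 for adipocyte, 0.275 for T cell, 0.265 for endothelial, 0.263 for fibroblast and 0.067 for smooth muscle markers. For each of the 8 lists that passed over mouse means the r within pairs was lower, a difference that was not tested.

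RNA quality was read from the 3′ and 5′ probesets of Actb. Their log2 ratio ran from -0.27 to 2.13 over the arrays, with a median of 0.78 in arrays holding muscle and 0.66 in the others, and had r = 0.091 with Ckm and 0.045 with Acta1.

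**Figure D5:**
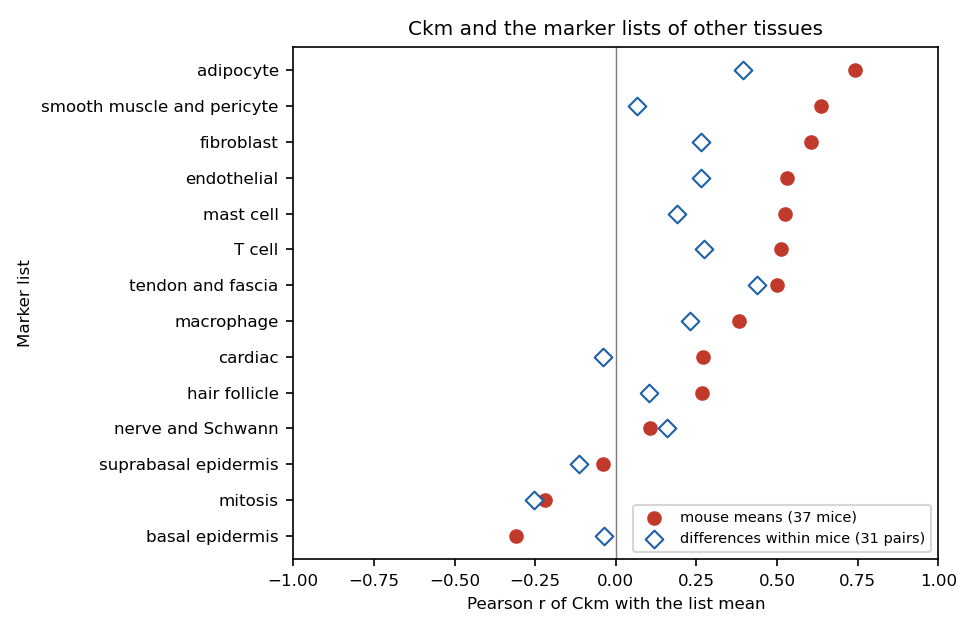
Pearson r (horizontal axis) of Ckm with the mean of each of 14 marker lists (vertical axis), over the means of 37 mice (filled circles) and over differences within 31 pairs (open diamonds). Adipocyte, smooth muscle and fibroblast lists stand at the top over mice (0.742, 0.637 and 0.605), and the values within pairs are 0.394, 0.067 and 0.263.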

How the data were processed

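RNA of 68 papillomas was measured on Affymetrix mouse genome arrays, 1 papilloma to an array. The deposited values are log2 expression per probeset, which the authors made with RMA (background correction, quantile normalization, probe summary) per the submitters' processing notes, which name no version. Of 45101 probesets 34945 carried 1 gene symbol, and 21581 of these, for 12605 genes, exceeded their array median in at least 11 arrays and were tested. Papillomas of 1 mouse were averaged, and mice were compared by susceptibility class, sex and coat color (sex as covariate) by limma (version 3.58.1, run under R 4.3.3). P-values were adjusted by the Benjamini-Hochberg method over all tested probesets, with a threshold of 0.05. The intraclass correlation over 31 pairs was tested by F, and correlations over mice by 100000 permutations, or exact enumeration under 10 mice, two-sided. Tables were made in pandas 2.3.3, statistics in scipy 1.17.1 with numpy 2.4.6, and plots in matplotlib 3.10.9, under Python 3.11.15. The code was tested on simulated data.

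Values are given for all members, and in full for the core markers, the members of largest and smallest range, those past a threshold and the fiber type genes. The 12 genes most like the members are named by their correlation with the mean of the tested members. The members and gene lists were chosen with earlier results of these data known. Some genes of the gene lists are not reported here. Promoters came from RefSeq on GRCm38.p6, and 9 members (Actn3, Myot, Myoz1, Neb, Sln, Tcap, Tnni2, Tnnt3 and Trdn) were not matched. Alternatives covered the filter, scaling, choice of probeset, covariates, start cohort, single arrays, doubtful sex labels, the marker rule and leaving out each mouse. The number of mice limits the precision.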

Additional observations from a re-analysis of the deposited data

Results flagged for a closer look

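In the 6 resistant mice, the gap between the highest mouse and the next one, as a share of the group's range, passed Dixon's 95% value of 0.625 for 16 of the 30 tested members. The highest was mouse 35 each time, a mouse with 1 array and a doubtful sex label. By gap share these were Myoz1 0.894, Actn3 0.855, Pygm 0.796, Myh4 0.779, Ryr1 0.77, Eno3 0.728, Des 0.725, Pvalb 0.713, Atp2a1 0.711, Mb 0.685, Myot 0.665, Ckm 0.661, Mybpc2 0.653, Pgam2 0.637, Acta1 0.631 and Tcap 0.627. Acta1 was 12.55 in mouse 35 and 8.80 in the next resistant mouse, Ckm 10.05 and 7.01, Myh4 9.16 and 4.56, and Pvalb 9.82 and 6.44, all on the log2 scale. The other resistant mice were means of 2 papillomas, so the gaps partly come from averaging. Papilloma 1 of mouse 37 alone had Acta1 at 10.77, Ckm at 8.49, Myh4 at 5.90 and Pvalb at 7.97. For normally distributed values chance flags about 1 in 20 groups for a single gene, but these values were skewed, so that rate may not apply. The members moved together, so the 16 flags come from 1 array and are not separate events.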

How the results depend on the processing

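No tested member passed between classes, sexes or coat colors under any alternative run. With single arrays and mouse as a replicate block 0 members passed in each of the 3 comparisons, and the medians over members were 0.20 for class, 0.58 for sex and 0.13 for coat. The replicate block changed no call of a member. The class background was 11 probesets and became 28 without the mice of doubtful sex label, 28 with arrays centered, 19 with all 37 mice, 5 over gene means, 2 with the replicate block, 1 with cohort as a block and 0 with sex and coat as covariates. The sex background was 15 and became 40 with the replicate block, and 7 with the stricter filter or over gene means. Leaving out single mice, the class median ran from -0.0461 to 0.70, Acta1 by class from -0.007 to 1.18, the coat median from -0.0297 to 0.22, the sex median from 0.46 to 0.78, the same-mouse count from 2 to 7 and the Myoz1 intraclass correlation from -0.11 to 0.0442. Signs also turned for the coat median without the mice of doubtful sex label (-0.0144), for Tpm2 by sex over all its probesets (0.0099) and for the Myoz1 intraclass correlation with arrays centered (0.0077), and the cause was not tested. The same-mouse count was 1 with members above the median in 34 arrays and 0 over the mean of all probesets of a gene. Arrays holding muscle were 33 by the median, 2 by the 90th percentile, 4 with all 8 markers, 0 with 75% of all members required and 14 without Myh4, chosen after seeing the data. With Tpm2 the lists passing were 6 by Spearman, 3 without the 2 farthest mice, 1 centered within start cohort and 1 without doubtful mice, and with Ckm 8. By Spearman those of Tpm2 were negative for fibroblast (-0.439), tendon (-0.411), macrophage (-0.494), T cell (-0.414) and mast cell markers (-0.445). Mitosis was positive (0.435). Each of these lists had the opposite sign with Ckm. The range of slow minus fast over arrays holding muscle was 2.39, and 0.29 by the 90th percentile with 2 arrays. It was 3.99 for Tnni1 and Tnni2 alone and 8.20 for Myh4 minus Myh2, which was chosen after seeing the data. A member under its array median lies near background, where a low level could be missed.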

Other observations

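Single genes of the cardiac list differed from each other. Nppb, a natriuretic peptide of heart muscle that other cells can also make, ran from 5.27 to 10.61 over the 68 arrays (median 6.64), and Myl7, the atrial light chain, from 4.66 to 8.86 (median 5.58). Neither followed muscle closely over the 37 mice, with Pearson r of 0.41 and -0.07 with Ckm, while Myh6 and Nppa exceeded their array median in no array. These are descriptions with no test.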
